A study of Mus musculus with 20 samples.

Results

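The liver transcriptomes of 10 of the 20 mice of the series were compared here: 5 LXR knockout mice and 5 wild-type mice, all kept on a normal chow diet, with every non-control probe of the arrays. The knockout mice lacked both liver X receptors, LXR alpha (gene Nr1h3) and LXR beta (gene Nr1h2). Both genotypes were males aged 28 weeks on a mixed Sv129/C57Bl6J background that had eaten the chow for 7 weeks, and each array held total RNA from a frozen piece of the large liver lobe of 1 mouse. The other 10 mice, of the same genotypes, ate a Western diet. They give a second genotype difference beside the one on chow. Their arrays also entered the fit behind the p values, the gene filter and the choice of probes. The labels do not say whether the genotypes were littermates, so that strain alleles and the LXR deletion cannot be told apart.

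The LXRs are nuclear receptors that bind oxidised cholesterol and act as partners of the retinoid X receptor. They are best known for switching on genes of cholesterol efflux, bile acid synthesis and fatty acid synthesis in the liver, and in macrophages they also restrain inflammatory genes and help to maintain the identity of Kupffer cells, the resident macrophages of the liver. The comparison asked which liver transcripts depend on the receptors without a dietary cholesterol load, and the account below is about pathways and gene families other than the well-known lipid targets.

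Levels are log2 of the processed signal minus the log2 75th percentile of the same array, so that a level of 0 lies at that percentile, and levels of different genes are not comparable because each rests on its own probe. A difference is knockout minus wild-type on the log2 scale ± SE, and adjusted p values come from limma over 17543 tested genes, with 0.05 as the threshold for a call. The words rose, fell and changed stand for a call. With n = 5 mice per group, 1984 genes (11.3%) rose and 1468 (8.37%) fell, 19.7% in all, and the median difference over all genes tested was -0.06. Of the genes that rose, 289 were well above background in no wild-type mouse, and of those that fell 36 were so in no knockout mouse. With only genes above background on all 10 normal-diet arrays, 1329 were called higher and 1371 lower. The groups did not overlap for 2612 genes (14.9%). A gene was kept for signal in any of the 4 groups of the series. Genes without wild-type signal could thus enter the counts of a list but could hardly be called lower. Where no mouse of a group had signal well above background, a gene is given as at least N-fold higher or lower, a bound. For it, each value of the dim group that fell under the floor of its array (the faintest probe still well above background) was set to that floor, the values of the brighter group were left as measured, and the group means of the log2 levels were compared. For such a gene the adjusted p is that of the limma fit to the values as measured, whose difference is larger. Neither a bound nor a difference with dim values at the floor was tested.

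Between 53.6% and 65.01% of probes were well above background on wild-type arrays and between 58.91% and 63.63% on knockout arrays. The 75th percentile of the signal was 170.3 to 280.0 intensity units in wild-type and 223.5 to 323.3 in knockout arrays. The arrays lay on 6 slides, 4 of which held both genotypes. Of the 3452 called genes, 3166 (91.7%) differed in the direction of the fit on each of these slides that had values for the gene. The calls came from the same arrays, so this share is partly built in and is not separate evidence. The share over all genes tested was not computed. Of 19 hepatocyte markers 1 rose and 2 fell, and their summed level (the sum of linear signals as multiples of the 75th percentile) was 3160 to 4670 in wild-type and 2980 to 3830 in knockout mice. Summed levels of a list cover every member on the array, tested or not. That of 11 pancreatic acinar genes (4 tested) was 9.72 to 13 in wild-type and 8.14 to 13.3 in knockout mice. That of 8 adipocyte genes (3 tested) was 1.3 to 3.19 and 0.702 to 3.56. In whole liver, fewer cells of a type and less RNA per cell cannot be told apart.

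The targeted genes followed the labels. Nr1h3 was at 4.38, 4.57, 4.38, 4.68 and 4.64 in wild-type mice 1 to 5 and at -4.97, -3.82, -4.38, -4.28 and -5.16 in knockout mice 1 to 5. Nr1h2 was at 0.67 to 1.01 in wild-type mice, median 0.83, and at -5.75 to -3.83 in knockout mice, median -4.41. Both genes were far lower in every knockout mouse than in any wild-type mouse, although each was still well above background in 4 of 5 knockout mice, and whether the probes lie within the deleted parts was not tested.

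**Figure D1:**
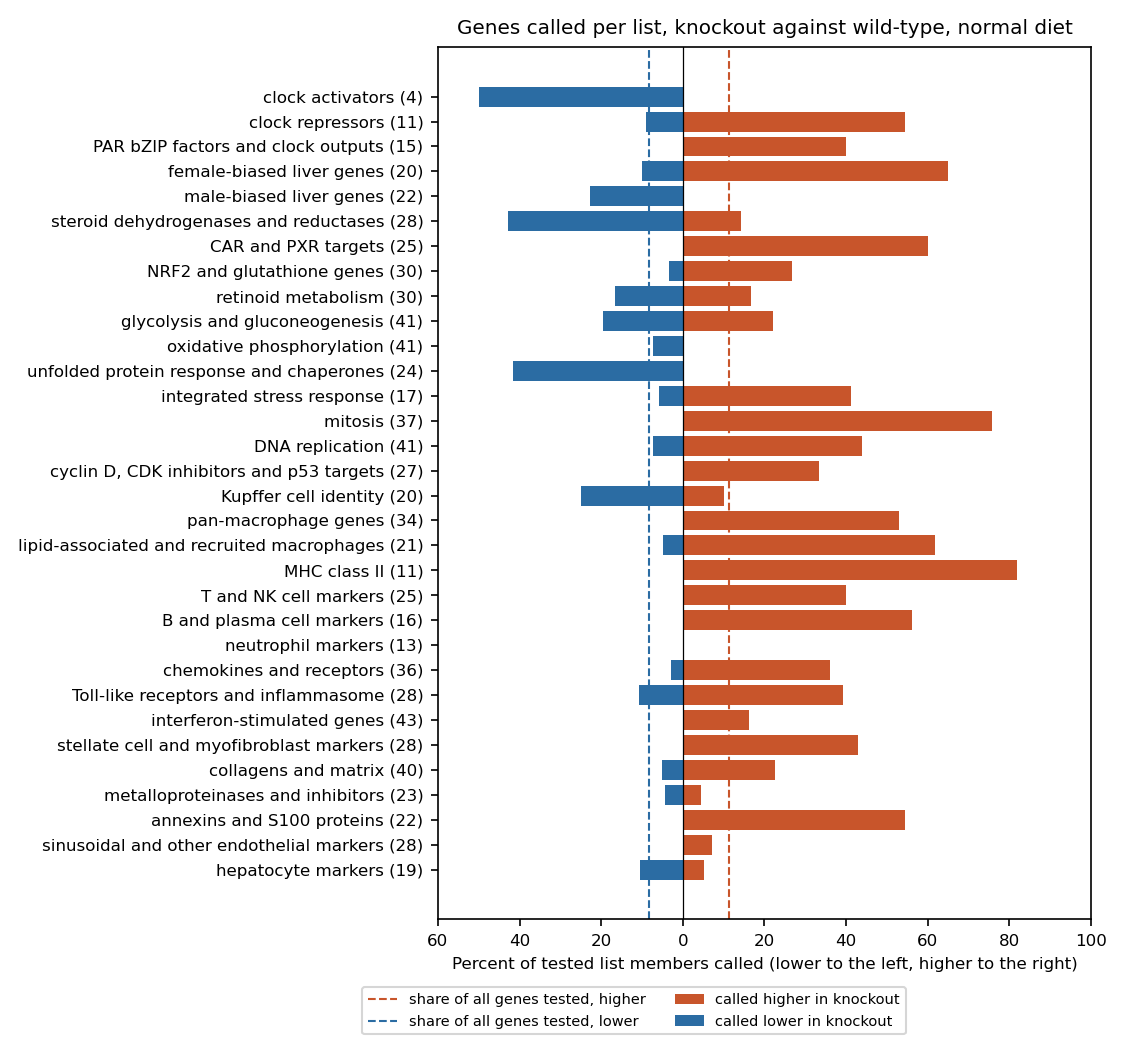
Horizontal bars give, for 32 of the gene lists, the percent of tested members that were called higher (orange, to the right) or lower (blue, to the left) in knockout liver on normal diet, with the number tested in brackets. Dashed lines mark the shares of all genes tested, 11.3% higher and 8.37% lower, and mitosis (75.7%) and MHC class II (81.8%) have the longest bars to the right.

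The counts depend on how dim signals are treated. With the normexp background, a model-based correction, 308 genes were called higher and 188 lower in all, and 72 of the 142 calls of genes named here were lost. Of the lists described, that setting left 2 mitosis, 1 DNA replication, 3 CAR and PXR target, 9 pan-macrophage, 3 lipid-associated macrophage, 3 B and plasma cell and 6 female-biased genes called higher, and 0 MHC class II and 0 T and NK genes. It left 7 chaperone and 5 steroid dehydrogenase and reductase genes called lower. With plain background subtraction plus an offset of 50 intensity units, an alternative chosen after seeing the data, 23 of the named calls were lost. With the deposited series matrix values, which held 139 of the 142, 13 were lost. The named calls lost under all 3 treatments were those of Stat5b, Ccnb1, Gpnmb, Cx3cr1, Cd3d, Hyou1, Spi1, Hk3, Pfkp, Phgdh, Psat1 and Sox4. Lost with normexp and with the offset of 50 were also those of Clock, Wee1, Abcd2, Foxa1, Pbk, Gzma, Cd180, Tnf and Hsp90b1. So were those of Per3 and Eda2r, which had no series matrix value.

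Circadian clock genes differed between genotypes, and the knockout mice also differed among themselves. The clock is a feedback loop in which the activators CLOCK and ARNTL (also called BMAL1) bind E-box sequences and switch on the Per and Cry repressor genes and output genes, among them the PAR bZIP factors Dbp and Tef, while the nuclear receptor NR1D1 represses Arntl. Of 11 clock repressor genes 6 rose and 1 fell (median difference 0.66), of 15 PAR bZIP and output genes 6 rose (median 0.88), and of 4 tested activators 2 fell (median -0.54). With slide as a block 4 repressors and 5 output genes were called higher and 0 activators lower. Background shares are those of all genes, 11.3% higher and 8.37% lower.

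Per1, a repressor of the loop, rose by 2.06 ± 0.36 (adjusted p = 0.000466): wild-type mice were at -0.77, 0.74, -0.48, -0.21 and 0.49, and knockout mice at 1.36, 1.88, 2.26, 2.28 and 2.26. All 5 knockout mice lay above all wild-type mice. Per2 rose by 1.75 ± 0.33 (adjusted p = 0.00106), again without overlap, with 0.54 (adjusted p = 0.101) when the probes of the gene were averaged. Ciart, a repressor of the CLOCK and ARNTL pair, was well above background in no wild-type mouse and in all 5 knockout mice and was at least 7.42-fold higher (adjusted p = 0.000239). Usp2, a clock-controlled ubiquitin protease gene, was at -3.69, -2.84, -3.06, -3.03 and -2.98 in wild-type mice and at 0.88, 1.63, 1.2, -0.13 and 1.6 in knockout mice, a rise of 4.16 ± 0.40 (adjusted p = 1.28e-06) with a wide gap between the groups. Wee1, a kinase gene that delays entry into mitosis and is controlled by the clock, was at least 1.41-fold higher (above background in 0 of 5 wild-type and 4 of 5 knockout mice, adjusted p = 0.000111). Its call was lost with normexp (0.29, adjusted p = 0.999) and with the offset of 50 (0.16, adjusted p = 0.407).

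In other clock genes knockout mice 4 and 5 stood apart from knockout mice 1 to 3. Arntl was at 1.8, 0.24, 1.53, 1.09 and 1.25 in wild-type mice and at -2.88, -2.91, -2.76, 1.74 and 0.9 in knockout mice 1 to 5. Knockout mice 1 to 3 were far below every wild-type mouse, and mice 4 and 5 were within the wild-type range. The difference was -2.36 ± 0.75 (adjusted p = 0.0336).

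Dbp, a target of CLOCK and ARNTL, ran the opposite way, with 0.08, 2.78, 0.20, 2.36 and 1.18 in wild-type mice and 6.12, 6.36, 6.37, 0.35 and 2.03 in knockout mice. Its difference of 2.93 ± 1.1 did not pass (adjusted p = 0.0706), and it passed without knockout mouse 4 (3.90, adjusted p = 0.00781) or knockout mouse 5 (3.48, adjusted p = 0.043). Nr1d1 was at -1.01 to -0.24 in wild-type mice and at 0.34, 0.67, -0.03, -5.80 and -4.56 in knockout mice, so that knockout mice 4 and 5 were the low ones (difference -1.18 ± 1.02, adjusted p = 0.452, above background in 4 of 5 knockout mice). Tef rose by 1.73 ± 0.40 (adjusted p = 0.00441), and its lowest knockout mouse, mouse 4 at 1.24, overlapped with the wild-type mice.

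The calls of the activators rest on few mice. Clock fell (-0.71 ± 0.24, adjusted p = 0.0405) and so did Nfil3, a repressor of D-box genes (-1.24 ± 0.41, adjusted p = 0.0394), with the same split of the knockout mice. The calls of Arntl (adjusted p = 0.0553 to 0.104), Clock (0.0633 to 0.127) and Nfil3 (0.0657 to 0.124) were lost without any 1 of 7 mice, all except wild-type mouse 2 and knockout mice 4 and 5. Cry2 (0.66 ± 0.22, adjusted p = 0.0386) and Per3 (1.22 ± 0.42, adjusted p = 0.0493, above background in 2 of 5 wild-type and 4 of 5 knockout mice) rose, with calls lost without any 1 of 8 mice (adjusted p = 0.0523 to 0.139 for Per3 and 0.0598 to 0.0954 for Cry2, where only leaving out knockout mouse 4 and wild-type mouse 5 or 1, respectively, kept them). Without wild-type mouse 3, 3 clock repressor genes were called higher in place of 6. The labels give a light and dark cycle but no hour of tissue collection, and the part of that hour in the split of the knockout mice was not tested. With slide as a block the calls of Arntl (-2.15, adjusted p = 0.0649), Clock (-0.59, adjusted p = 0.0678), Nfil3 (-1.10, adjusted p = 0.0793) and Per3 (1.29, adjusted p = 0.0558) were lost. Within single slides the difference of Arntl was -4.71 and -3.00 on slides 2 and 3, which held knockout mice 2 and 3, and 0.21 and -0.19 on slides 4 and 6, which held knockout mice 4 and 5. Fitted on only the 10 normal-diet arrays, Arntl (adjusted p = 0.117), Clock (adjusted p = 0.134) and Nfil3 (adjusted p = 0.121) were not called.

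**Figure D2:**
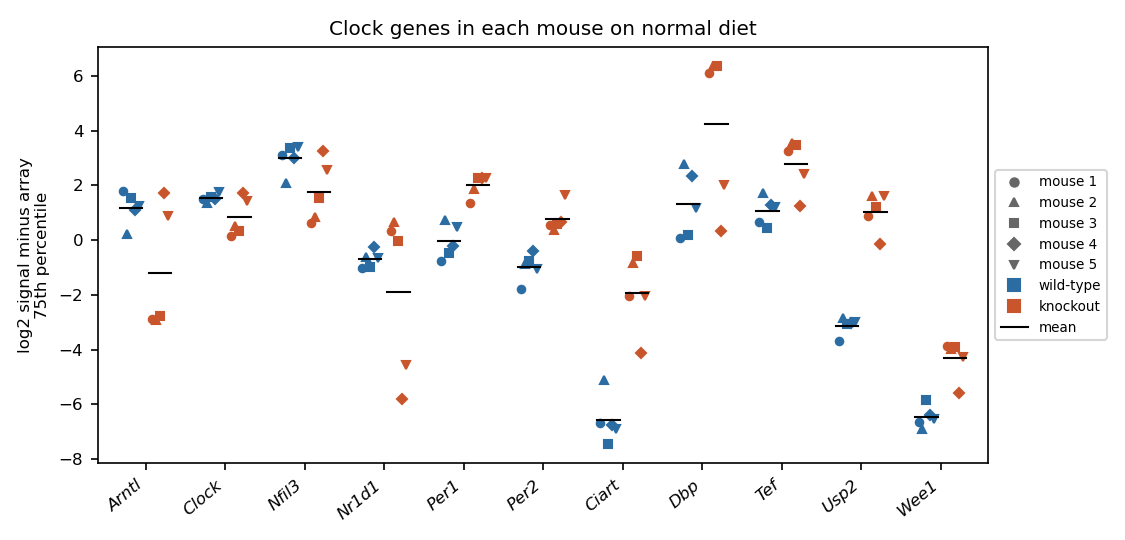
Levels of 11 clock genes in each mouse on normal diet (log2 signal minus the array 75th percentile), with wild-type mice in blue, knockout mice in orange, marker shape for the mouse number and a bar for the group mean. Knockout mice 4 and 5 (diamond and inverted triangle) lie apart from knockout mice 1 to 3 for Arntl, Nr1d1 and Dbp but not for Per1, and knockout mouse 5 is the highest for Per2.

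Promoters of 3 clock genes that rose are shown because they hold the E-box through which CLOCK and ARNTL act, which not every gene that rose does. The 250 bases before the transcription start were taken from RefSeq (build GRCm38.p6) and searched on both strands for CACGTG. At least 1 E-box was present in 4 of the 9 repressor genes with a promoter in the table (44.4%), in 3 of 14 output genes (21.4%) and in 0 of 3 activators, against 1854 of all 27025 genes (6.86%). Among all genes higher and lower in knockout liver the shares were 9.48% and 8.72%, against 9.35% of the genes tested, so that the motif was no more frequent among called genes in general. The D-box TTATGTAA was in 1 of 9 repressor genes and in 0.977% of all genes. Among the genes that rose, Usp2, Per3 and Cry2 held 0 E-boxes in this window, as did the other start of Per1. Capitals mark E-boxes in the sequences, which are written 5′ to 3′ on the strand of the gene, and a match is a description of the letters only.

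Per1 (chr11:69098699-69098948, plus strand): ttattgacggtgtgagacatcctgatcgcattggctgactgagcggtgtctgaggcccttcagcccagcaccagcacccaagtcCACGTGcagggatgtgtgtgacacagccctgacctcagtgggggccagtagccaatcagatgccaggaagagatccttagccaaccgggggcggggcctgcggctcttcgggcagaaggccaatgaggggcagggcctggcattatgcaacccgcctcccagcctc

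Ciart (chr3:95882229-95882478, minus strand): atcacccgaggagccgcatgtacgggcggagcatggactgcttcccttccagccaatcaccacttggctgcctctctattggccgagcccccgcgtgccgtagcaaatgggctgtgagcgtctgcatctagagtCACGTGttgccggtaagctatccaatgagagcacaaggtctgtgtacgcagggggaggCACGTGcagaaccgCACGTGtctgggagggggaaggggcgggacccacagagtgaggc

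Tef (chr15:81811164-81811413, plus strand): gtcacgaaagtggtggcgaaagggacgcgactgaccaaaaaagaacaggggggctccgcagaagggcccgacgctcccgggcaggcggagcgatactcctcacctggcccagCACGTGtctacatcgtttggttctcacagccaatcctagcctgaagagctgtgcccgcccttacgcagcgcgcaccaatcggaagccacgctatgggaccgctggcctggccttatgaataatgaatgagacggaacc

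Many liver genes known to be higher in female mice were higher in these knockout males. The sex difference of mouse liver is set largely by the pattern of growth hormone release acting through STAT5B. Of 20 tested female-biased genes 13 rose and 2 fell (median difference 1.90, or 1.54 with dim genes at their bound), and of 22 male-biased genes 5 fell and none rose (median -0.38).

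Cyp2b9, a cytochrome P450 gene of female liver, was at -1.7, -0.27, -0.85, -0.98 and -0.54 in wild-type mice and at 2.67, 3.53, 2.92, 4.18 and 3.79 in knockout mice. The groups were far apart (4.28 ± 0.53, adjusted p = 1.73e-05). Cyp2b13 rose by 3.67 ± 0.58 (adjusted p = 0.000196) and the organic anion transporter gene Slco1a4 by 2.37 ± 0.32 (adjusted p = 4.33e-05), both without overlap. Abcd2, a peroxisomal transporter gene, lay at least 2.41-fold higher (adjusted p = 1.88e-05) and was below background in every wild-type mouse. The call of Abcd2 was lost with normexp (0.34, adjusted p = 0.94) and with the offset of 50 (0.24, adjusted p = 0.318). Cyp3a44 rose by 1.91 ± 0.26 (adjusted p = 4.35e-05, saturated in 1 knockout mouse). Whether probes of the related Cyp2b genes, or of Cyp3a44 and Cyp3a11, read more than 1 gene was not tested.

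Against the list's direction, Cyp17a1, which encodes a steroid hydroxylase, fell by 1.06 on the log2 scale (SE 0.3, adjusted p = 0.0181, and 0.0513 without knockout mouse 5). With dim signals damped by subtracting the background and adding 50 intensity units, 8 female-biased genes were called higher in place of 13.

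Among male-biased genes Hsd3b5, which encodes a steroid reductase of male liver, was at 5.58, 5.55, 5.85, 6.06 and 5.73 in wild-type and at 2.77, 2.27, 4.42, 4.24 and 3.9 in knockout mice. It fell without overlap (-2.23 ± 0.64, adjusted p = 0.0189), and the call was lost without knockout mouse 1 or 2 (adjusted p = 0.0538 to 0.0541). The complement gene C9 (-1.09 ± 0.23, adjusted p = 0.00249) fell too, in every knockout mouse below every wild-type mouse. Selenbp2, a selenium-binding protein gene, was saturated in all 5 wild-type mice and was at least 1.71-fold lower (adjusted p = 0.0029).

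Growth hormone signalling genes moved little. Of 23 genes of this axis 2 rose and 3 fell (median -0.12), which is near the background shares. The receptor gene Ghr (-0.25 ± 0.21, adjusted p = 0.438, 4 wild-type values) and Igf1 (0.28 ± 0.17, adjusted p = 0.261) were not called. Socs1, a feedback inhibitor of cytokine signals, rose by 1.26 ± 0.31 (adjusted p = 0.0076).

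Lifr, the receptor gene of leukaemia inhibitory factor, fell (-1.15 ± 0.25, adjusted p = 0.00352, 4 wild-type values) in every knockout mouse. Stat5b (-0.36 ± 0.12, adjusted p = 0.0444) and Foxa1, a pioneer factor of liver genes (-1.11 ± 0.37, adjusted p = 0.0443), fell with overlap, and both calls were lost without any 1 of 8 mice, all except knockout mouse 4 and wild-type mouse 2 for Stat5b or wild-type mouse 1 for Foxa1 (adjusted p = 0.0522 to 0.129 and 0.053 to 0.125).

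Many steroid dehydrogenase and reductase genes were lower. Of 28 tested, 12 fell and 4 rose (42.9% and 14.3%, median -0.22), and without wild-type mouse 3 the number higher was 1. The 3-beta-hydroxysteroid dehydrogenase genes, which lie together and have very similar sequences, so that probes may read more than 1 of them, fell side by side. Hsd3b3 was at 2.12, 2.55, 2.38, 2.71 and 2.51 in wild-type and at -0.94, -1.25, -1.22, -1.67 and -0.84 in knockout mice (-3.64 ± 0.31, adjusted p = 2.93e-07). Hsd3b6 was at 0.16 to 0.56 and at -3.60 to -3.12 (-3.72 ± 0.36, adjusted p = 1.32e-06). For both genes the highest knockout mouse was far below the lowest wild-type mouse.

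Hsd3b4 fell by 2.40 on the log2 scale (SE 0.4, adjusted p = 0.00034). The steroid 5-alpha-reductase genes fell as well. Srd5a1 had a difference of -1.77 ± 0.24 (adjusted p = 0.000139, 3 wild-type values, and -0.66 with adjusted p = 0.571 when its probes were averaged). Srd5a2 was at least 3.01-fold lower (above background in 4 of 5 wild-type and 0 of 5 knockout mice, adjusted p = 0.00516), with wild-type mouse 4 at -6.69 among the knockout values.

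Many targets of the receptors CAR and PXR rose. CAR (gene Nr1i3) and PXR are nuclear receptors that respond to foreign compounds and induce cytochrome P450, conjugation and transporter genes. Of 25 tested targets 15 rose and none fell (60%, median 1.00), and 14 of the 25 did not overlap between groups, while 3 were called with the normexp background (median 0.78). Gsta2, a glutathione transferase gene, was at 0.01, 0.50, 0.97, 1.4 and 1.01 in wild-type and at 3.90, 4.83, 3.42, 4.10 and 3.44 in knockout mice, a rise of 3.16 ± 0.42 (adjusted p = 3.64e-05) with at least 2 log2 units between the groups. Cyp3a11, the main PXR-induced P450, rose by 1.61 ± 0.23 (adjusted p = 6.4e-05, saturated in 2 knockout mice), and Cyp2b10, the usual marker of CAR activity, by 1.91 ± 0.49 (adjusted p = 0.0103).

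Nr1i3 itself was at 2.01 to 2.66 in wild-type and at 2.75 to 3.81 in knockout mice (1.15 ± 0.22, adjusted p = 0.00108). Sult1e1, the oestrogen sulfotransferase gene, was at -0.17, 0.75, 1.57, 3.8 and -0.12 in wild-type mice, with mouse 4 above 4 of the 5 knockout mice, and its rise (2.11 ± 0.68, adjusted p = 0.0362) was lost without any 1 of 6 mice, all except wild-type mice 3 and 4 and knockout mice 2 and 4 (adjusted p = 0.0508 to 0.0971). Of 30 NRF2 and glutathione genes 8 rose and 1 fell (median 0.20), among them the quinone reductase gene Nqo1 (1.65 ± 0.27, adjusted p = 0.000279). Of 24 glucuronosyl- and sulfotransferase genes and related enzymes 3 rose and 3 fell, and Nnmt, which methylates nicotinamide, was at 6.05 to 7.26 in wild-type mice and at 3.0, 4.51, 4.76, 4.51 and 6.77 in knockout mice (-1.95 ± 0.51, adjusted p = 0.0112), with knockout mouse 5 among the wild-type values.

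Retinoid genes moved in both directions, 5 of 30 up and 5 down (median 0.08). Retinoic acid acts through receptors that share a partner with the LXRs and induces its own clearing enzyme. Cyp26a1, that clearing enzyme, was at 1.47, 0.33, 1.08, 1.19 and 1.14 in wild-type and at 3.40, 4.53, 3.63, 3.68 and 3.18 in knockout mice (2.64 ± 0.28, adjusted p = 2.94e-06). The groups did not overlap. The retinoic acid receptor gene Rarb rose (1.55 ± 0.23, adjusted p = 9.33e-05), and Dhrs9, a retinol dehydrogenase gene (-2.10 ± 0.37, adjusted p = 0.000513), and Bco2, a carotenoid-cleaving oxygenase gene (-1.95 ± 0.32, adjusted p = 0.0003), fell.

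**Figure D3:**
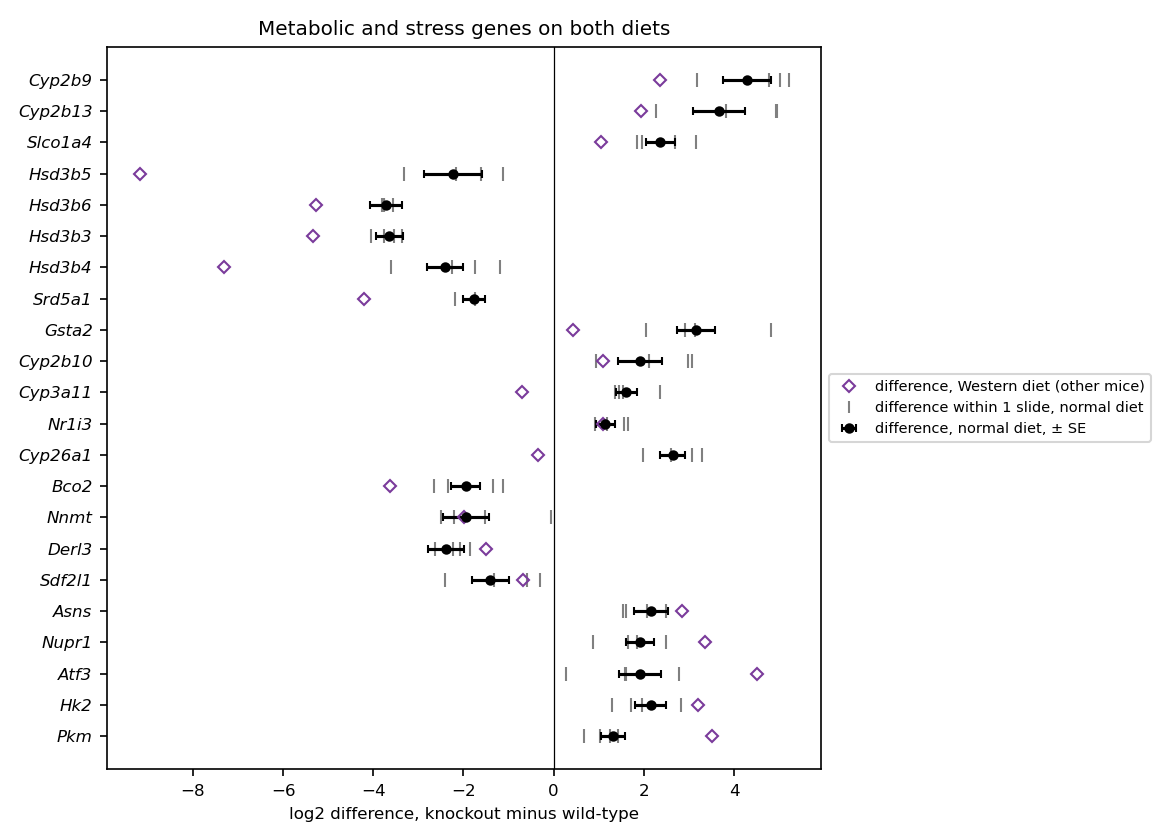
Differences (log2, knockout minus wild-type) of 22 metabolic and stress genes: black points with bars give the normal-diet difference ± SE, grey ticks the difference within each slide that held both genotypes, and open diamonds the Western-diet difference in other mice. The Hsd3b genes lie left of 0 on both diets, and Cyp3a11 and Cyp26a1 lie right of 0 on normal diet and left of it on Western diet.

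Genes of cell division were higher in knockout liver. An adult liver is mostly quiescent, and transcripts of mitosis are normally scarce in it. Of 37 tested mitosis genes 28 rose and none fell (75.7%, median 1.98, or 1.26 with dim genes at their bound), and 24 did not overlap between groups. Members without wild-type signal, such as Pbk, Top2a, Cdk1 and Ccnb1, passed the filter through another group and could hardly be called lower. How many of the 37 these were was not counted. The summed level of the 42 mitosis genes on the array was 11.1 to 13.2 times the array 75th percentile in wild-type and 13.9 to 30 in knockout mice. Mki67, the usual marker of cycling cells, was at -3.64, -2.85, -3.22, -3.62 and -2.84 in wild-type and at 0.37, -1.01, 0.20, -0.36 and 1.05 in knockout mice, a rise of 3.28 ± 0.40 (adjusted p = 1.6e-05). Knockout mouse 2 was the lowest and mouse 5 the highest of the knockout mice, as they were for Birc5, Cdc20 and Cdk1.

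Birc5, an inhibitor of cell death that is also part of the chromosomal passenger complex, rose by 2.44 ± 0.42 (adjusted p = 0.000397) and Cdc20, an activator of the anaphase-promoting complex, by 2.17 ± 0.52 (adjusted p = 0.00617). Cdk1, the mitotic kinase, was at least 3.66-fold higher (adjusted p = 0.000339), Pbk at least 3.33-fold (adjusted p = 0.000588) and the topoisomerase gene Top2a at least 2.46-fold (adjusted p = 0.000682), all above background in every knockout mouse and in no wild-type mouse. With normexp these calls were lost (adjusted p = 0.57, 0.67 and 0.735), and with the offset of 50 that of Pbk was lost (0.58, adjusted p = 0.0968). Ccnb1, the mitotic cyclin, was at least 1.29-fold higher (above background in 3 of 5 knockout mice, adjusted p = 0.0312), a call lost without any 1 of 7 mice, all except wild-type mouse 5 and knockout mice 2 and 4 (adjusted p = 0.0571 to 0.0826). The mitosis count depends on how dim signals are treated: 2 of 37 were called higher with the normexp background (median 0.46), and 14 (median 0.43) when the background was subtracted and 50 intensity units were added.

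The promoters of 3 mitosis genes are shown because they hold both CCAAT boxes and the CHR element, which many cell cycle genes share. In the 250 bases before the start, CCAAT on either strand was present in 24 of the 30 mitosis genes with a RefSeq promoter (80%), against 10133 of 27025 genes (37.5%). The CHR element TTTGAA was present in 12 of 30 (40%), against 18.3%. Of the genes named above, Birc5 held neither motif in this window, and Ccnb1 held 2 CCAAT boxes and 0 CHR elements. Among all genes higher in knockout liver the shares were 40.8% and 15.3%, close to the 39.7% and 13.5% of the genes tested. Capitals mark CCAAT (or ATTGG) and TTTGAA (or TTCAAA), which overlapped nowhere in these 3 sequences, and Top2a holds 6 CCAAT boxes and 2 CHR elements (GRCm38.p6).

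Cdc20 (chr4:118437344-118437593, minus strand): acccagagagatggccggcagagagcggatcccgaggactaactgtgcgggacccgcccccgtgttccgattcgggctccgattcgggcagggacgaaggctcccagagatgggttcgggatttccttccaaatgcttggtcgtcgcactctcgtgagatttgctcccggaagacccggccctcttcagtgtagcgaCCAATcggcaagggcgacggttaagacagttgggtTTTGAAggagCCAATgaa

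Cdk1 (chr10:69352913-69353162, minus strand): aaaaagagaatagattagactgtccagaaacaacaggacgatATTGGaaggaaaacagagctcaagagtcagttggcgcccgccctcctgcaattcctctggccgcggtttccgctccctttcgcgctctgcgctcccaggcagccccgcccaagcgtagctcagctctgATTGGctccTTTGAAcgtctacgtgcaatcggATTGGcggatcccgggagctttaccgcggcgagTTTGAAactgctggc

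Top2a (chr11:99024190-99024439, minus strand): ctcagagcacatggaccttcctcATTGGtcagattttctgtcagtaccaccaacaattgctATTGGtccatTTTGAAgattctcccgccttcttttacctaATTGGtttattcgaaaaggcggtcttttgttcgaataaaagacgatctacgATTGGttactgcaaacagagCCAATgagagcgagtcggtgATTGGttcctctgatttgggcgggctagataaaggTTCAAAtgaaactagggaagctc

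DNA replication genes rose less uniformly. Of 41 tested, 18 rose and 3 fell (median 0.50). Mcm5, a subunit of the replicative helicase, was at -2.93 to -2.16 in wild-type and at 0.08, -1.46, 0.01, -0.78 and 0.86 in knockout mice (2.14 ± 0.41, adjusted p = 0.00108). Uhrf1, which carries DNA methylation through replication, rose by 3.28 ± 0.50 (2.75 with dim values at the floor of their array, above background in 1 of 5 wild-type mice, adjusted p = 0.000147). E2f8, a repressor of E2F targets that is active in polyploid hepatocytes, went the opposite way, from 2.26, 1.99, 1.70, 2.17 and 2.11 in wild-type to -2.54, -0.16, -0.56, -0.95 and 0.02 in knockout mice (-2.88 ± 0.51, adjusted p = 0.000566), without overlap.

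Of 27 cyclin D, CDK inhibitor and p53 target genes 9 rose and none fell (median 0.47). Phlda3, a p53-induced inhibitor of AKT, was at -1.74, -1.39, -1.61, -1.33 and -1.44 in wild-type and at 2.09, 2.04, 2.68, 1.56 and 2.37 in knockout mice (3.65 ± 0.26, adjusted p = 2.74e-08). Its groups lay far apart. Eda2r, another p53 target, lay at least 2.49-fold higher (adjusted p = 5.33e-07). Its call was lost with normexp (0.38, adjusted p = 0.888) and with the offset of 50 (0.31, adjusted p = 0.154). Cdkn1a, the p21 inhibitor, rose (1.70 ± 0.42, adjusted p = 0.00836, and 0.053 fitted on only the 10 normal-diet arrays). Its values were -0.01, -0.6, 0.84, 1.77 and 2.4 in knockout mice, of which mouse 2 was within the wild-type range. Ccnd1 rose by 1.64 ± 0.36 (adjusted p = 0.00309), also with overlap.

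**Figure D4:**
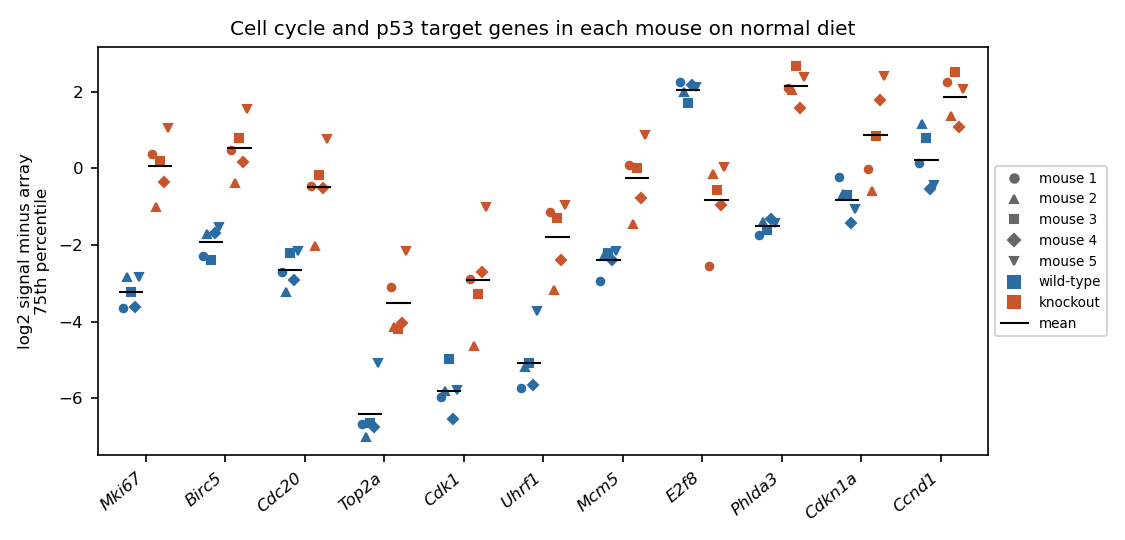
Levels of cell cycle and p53 target genes in each mouse on normal diet (log2 signal minus the array 75th percentile), wild-type in blue and knockout in orange, with a black bar for the group mean and marker shape for the mouse number. Mki67, Birc5, Cdc20 and Mcm5 lie higher in all 5 knockout mice, and E2f8 lies lower.

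Some Kupffer cell genes fell, while many other macrophage genes rose. Kupffer cells are marked by Clec4f, Timd4, Vsig4, Cd163, Folr2 and Cd5l, several of which are known to need LXR alpha, and macrophages newly derived from monocytes lack these genes and carry Ccr2, Cx3cr1 and Itgax. Of 20 tested Kupffer identity genes 5 fell (Nr1h3 among them) and 2 rose (median -0.25), and their summed level was 92.3 to 120 in wild-type and 46.3 to 76.7 in knockout mice. Nr1h3, the deleted gene, made up 20.8 to 25.6 of that sum in wild-type mice, and without it the sums overlapped, 70.2 to 96.1 and 46.2 to 76.6 (4 of 19 lower). Of 34 tested pan-macrophage genes 18 rose and none fell (median 1.35). The summed level of the 35 on the array was 45.1 to 87.4 in wild-type and 62.6 to 221 in knockout mice. Of 21 genes of lipid-associated and recruited macrophages 13 rose and 1 fell (median 1.73), with summed levels that overlapped, 52.5 to 71.2 and 22.2 to 115.

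Cd5l, a secreted protein of macrophages and a known LXR target, was at 3.43, 4.72, 3.52, 3.33 and 3.26 in wild-type and at -2.36, -3.05, -3.16, -3.62 and -2.58 in knockout mice. The groups were far apart (-6.61 ± 0.38, adjusted p = 1.12e-09). Cd163, the haemoglobin scavenger receptor gene, fell by 5.30 on the log2 scale (SE 0.51, adjusted p = 1.26e-06), or by 4.67 with dim values at the floor (above background in 2 of 5 knockout mice).

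Clec4f was at 3.03, 3.94, 3.06, 2.96 and 3.09 in wild-type and at -0.27, -4.25, -0.13, 0.46 and 0.89 in knockout mice (-3.88 ± 0.84, adjusted p = 0.00291). Knockout mouse 2 was far below the other knockout mice, as it was for Folr2 (-5.53 against -2.77 to -1.93, difference -2.17 ± 0.57, adjusted p = 0.012), Timd4 (-7.14 against -4.21 to -1.83) and Vsig4 (-7.08 against -2.59 to -0.71). Timd4 (-1.59 ± 0.69, adjusted p = 0.115) and Vsig4 (-2.33 ± 0.83, adjusted p = 0.0558) did not pass, and each was above background in 4 of 5 knockout mice. Timd4 passed without knockout mouse 1 (-2.16, adjusted p = 0.0276), and Vsig4 passed without knockout mouse 4 (-2.61, adjusted p = 0.0399) or 5 (-2.84, adjusted p = 0.0252). Against the list's direction Spic, a factor of iron-recycling macrophages, rose by 2.39 ± 0.41 (adjusted p = 0.000399), and Slc11a1, a phagosomal metal transporter gene, rose by 1.87 ± 0.32 (adjusted p = 0.000424).

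Some genes known from patrolling monocytes were among the largest differences and were picked for their size. Fcgr4 is also a member of the pan-macrophage list, and no list of patrolling monocyte genes was counted. Fcgr4, an Fc receptor gene of these cells, was at -2.31, -1.46, -2.39, -2.80 and -1.88 in wild-type and at 2.73, 3.13, 3.24, 1.05 and 2.96 in knockout mice (4.79 ± 0.43, adjusted p = 5.48e-07). Cd300e, also of patrolling monocytes, rose by 4.51 ± 0.50 (adjusted p = 5.35e-06), Spn (CD43) by 4.48 ± 0.45 (adjusted p = 1.97e-06) and the signal-regulatory protein gene Sirpb1a by 4.93 ± 0.38 (adjusted p = 6.78e-08), each at its lowest in knockout mouse 4 (1.19, -1.32 and -0.01) and each without overlap.

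Itgax, the integrin CD11c, was above background in 2 of 5 wild-type mice and rose by 4.31 ± 0.47 (4.19 with dim values at the floor, adjusted p = 4.33e-06). Ms4a7, a gene of recruited macrophages, was at -5.23 to -4.72 in wild-type and at 0.72, -1.97, -1.26, -3.27 and -0.86 in knockout mice (3.64 ± 0.54, or 3.40 with dim values at the floor, above background in 1 of 5 wild-type mice, adjusted p = 9.67e-05). The chemokine receptor gene Ccr2 rose by 2.08 ± 0.43 (adjusted p = 0.00185), with knockout mouse 1 at 0.00 and the others at -2.96 to -2.01, and Cx3cr1 was at least 3.40-fold higher (adjusted p = 0.000997, but 0.639 with normexp, 0.171 with the offset of 50 and 0.0509 with the series matrix values). Gpnmb, a glycoprotein of lipid-laden macrophages, was at least 2.72-fold higher (adjusted p = 0.00598), with -6.66 in knockout mouse 2 and 0.13 in mouse 5, and above background in 4 of 5 knockout mice. With the same alternatives its adjusted p was 0.405, 0.0888 and 0.0726.

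Fabp5, a fatty acid-binding protein of the same kind of macrophage, was above background in every wild-type and in no knockout mouse and was at least 4.36-fold lower (adjusted p = 0.00024). The adaptor gene Fcer1g (2.67 ± 0.27, adjusted p = 1.98e-06) and the actin regulator gene Coro1a (2.97 ± 0.38, adjusted p = 2.46e-05) rose. Adgre1 (F4/80), carried by Kupffer cells and recruited macrophages alike, was at -0.08, 1.20, 0.11, -0.05 and 0.13 in wild-type and at 2.28, 0.47, 1.14, 0.47 and 1.85 in knockout mice (0.98 ± 0.38, adjusted p = 0.0782). It passed without wild-type mouse 2 (1.22, adjusted p = 0.0339) or knockout mouse 2 (1.17, adjusted p = 0.0469) or 4 (1.17, adjusted p = 0.0375).

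**Figure D5:**
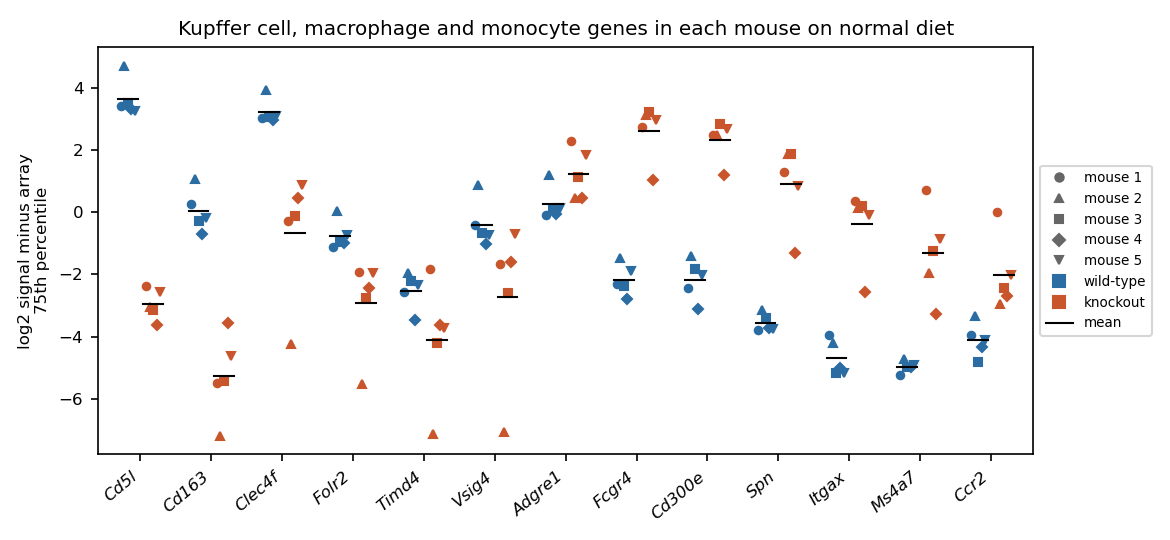
Levels of Kupffer cell and monocyte-type genes in each mouse on normal diet (log2 signal minus the array 75th percentile), wild-type in blue and knockout in orange, with a black bar for the group mean and marker shape for the mouse number. Kupffer genes such as Cd5l and Clec4f lie lower and Fcgr4 and Itgax higher in every knockout mouse, with knockout mouse 2 lowest for Clec4f and knockout mouse 4 lowest for Fcgr4.

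Most MHC class II genes, which present antigen, rose, and so did some lymphocyte markers. Of 11 tested MHC class II genes 9 rose and none fell (81.8%, median 1.45), 7 were called with the offset of 50 and 0 with normexp (median 1.05), and of 17 MHC class I genes 1 rose (median 0.16), near the background share. H2-Aa, a class II chain, was at -1.72, -1.53, -1.41, -1.07 and -0.98 in wild-type and at 2.12, -0.79, -0.1, -0.03 and 1.25 in knockout mice (1.83 ± 0.42, adjusted p = 0.00447). Ciita, the master activator of class II genes, rose by 1.81 ± 0.46 (adjusted p = 0.00884), and Cd74, the invariant chain, by 1.46 ± 0.43 (adjusted p = 0.0215, and 0.0557 without knockout mouse 5). Knockout mice 1 and 5 were the highest for H2-Aa, Ciita and Cd74.

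Of 16 B and plasma cell markers 9 rose (median 0.92) and of 25 T and NK cell markers 10 rose (median 0.92), with none lower. The summed level of the 24 B and plasma markers on the array was 23.4 to 30.1 in wild-type and 33.4 to 42.3 in knockout mice. That of the 32 T and NK markers on the array was 9.58 to 13.3 and 12.5 to 22.1. The B cell receptor gene Cd79b was at -3.98 to -2.42 in wild-type and at 0.24, 0.24, 0.35, -1.29 and -0.37 in knockout mice (2.79 ± 0.31, adjusted p = 5.8e-06). Jchain, which joins secreted antibodies, rose by 2.42 ± 0.61 (adjusted p = 0.00872), and the T cell receptor gene Cd3d by 1.55 ± 0.41 (above background in 4 of 5 wild-type mice, adjusted p = 0.0121). The granzyme gene Gzma was at least 2.50-fold higher (adjusted p = 0.000299), a call lost with normexp (0.41, adjusted p = 0.873) and with the offset of 50 (0.33, adjusted p = 0.122). T and NK genes are dim: 1 was called higher with the background subtracted and 50 intensity units added, 3 with the deposited series matrix values and 6 without knockout mouse 1, in place of 10. Of 13 neutrophil markers 0 were called by limma at the adjusted threshold (at most 3 in an alternative fit) and 2 had an unadjusted p under 0.05 (median 0.36, or -0.03 with dim genes at their bound). The summed level of the 14 on the array was 1.31 to 12.0 in wild-type and 2.65 to 15.2 in knockout mice.

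Of 36 chemokine and receptor genes 13 rose and 1 fell (median 1.02). Ccl4, a chemokine made by macrophages and lymphocytes, was at -5.33 to -4.30 in wild-type and at -0.61, -0.26, -0.41, -3.60 and -2.13 in knockout mice (3.33 ± 0.62, or 3.21 with dim values at the floor, above background in 2 of 5 wild-type mice, adjusted p = 0.000896). The member that fell was Ccl24, an eosinophil attractant made by Kupffer cells (-4.08 ± 0.46, or -3.20 with dim values at the floor, above background in 1 of 5 knockout mice, adjusted p = 5.8e-06). With the background subtracted and 50 units added, 6 chemokine genes were called higher.

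Of 28 Toll-like receptor and inflammasome genes 11 rose and 3 fell (median 0.80, and 7 rose without knockout mouse 1). Tlr1 lay at least 9.02-fold higher (adjusted p = 1.37e-05) and the related Cd180 at least 3.22-fold (adjusted p = 4.62e-05), both above background in every knockout and in no wild-type mouse. With normexp both calls were lost (adjusted p = 0.122 and 0.857), and with the offset of 50 that of Cd180 was lost (0.35, adjusted p = 0.133). Pycard, the inflammasome adaptor, rose by 2.48 ± 0.62 (adjusted p = 0.00816, and 0.0631 fitted on only the 10 normal-diet arrays). Wild-type mouse 4, at -5.44, was below the other wild-type mice at -1.22 to -1.01. Nlrp12, a NOD-like receptor known as a brake on inflammation, was at 2.07, 2.83, 2.33, 2.12 and 2.48 in wild-type mice and at -6.55, -4.64, -6.11, -4.80 and -4.15 in knockout mice. It was above background in 1 of 5 knockout mice and fell by 7.62 on the log2 scale (SE 0.92, adjusted p = 1.37e-05), or by 7.09 with dim values at the floor.

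Of 34 NF-kB, TNF and IL-1 family genes 10 rose and 1 fell (median 0.59). Tnf rose by 2.54 ± 0.44 (1.69 with dim values at the floor, above background in 2 of 5 wild-type mice, adjusted p = 0.000421). The call of Tnf was lost with normexp (0.50, adjusted p = 0.76) and with the offset of 50 (0.44, adjusted p = 0.116). Il1b rose by 1.73 ± 0.50 (adjusted p = 0.021) with knockout mouse 4, at -1.40, among the wild-type mice, and the call was lost without wild-type mouse 4 or 5 or knockout mouse 1, 2 or 3 (adjusted p = 0.0541 to 0.0695).

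Interferon-stimulated genes rose little as a list. Of 43 tested, 7 rose and none fell (16.3%, median 0.71), 3 rose without wild-type mouse 4 and 4 with slide as a block. The members that rose include genes induced by interferon gamma. The GTPase gene Igtp was at 3.68, 2.86, 3.05, 2.56 and 2.86 in wild-type and at 5.27, 4.88, 5.24, 4.40 and 5.33 in knockout mice (2.02 ± 0.39, adjusted p = 0.00125). Gbp2 rose by 1.64 ± 0.46 (adjusted p = 0.017) and Tgtp1 by 2.23 ± 0.67 (adjusted p = 0.0246), the latter not without wild-type mouse 4 or knockout mouse 1 or 5 (adjusted p = 0.0574 to 0.08). Irf1 rose by 0.99 ± 0.34 (adjusted p = 0.0485), a call lost without any 1 of 8 mice, all except wild-type mouse 1 and knockout mouse 4 (adjusted p = 0.0595 to 0.147). Ubd, a ubiquitin-like gene induced by interferon gamma and TNF, was at 5.71, -0.85, -0.8, -2.71 and -0.11 in knockout mice and above background in 2 of 5 wild-type mice (5.25 ± 1.11, or 4.88 with dim values at the floor, adjusted p = 0.00251), so that knockout mouse 1 stood far above the others.

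A block of immune genes on distal chromosome 1 differed sharply. Of 14 tested HIN-200 (DNA sensor) and SLAM (lymphocyte adhesion receptor) family genes 7 rose and none fell (median 0.93). Ifi202b, whose probe lies at 175799497 to 175800526 of chromosome 1 in mm8, was at -6.64, -6.94, -7.30, -6.53 and -7.09 in wild-type and at 0.72, -0.90, -0.36, -0.68 and 0.60 in knockout mice. It was below background in every wild-type mouse and at least 25.9-fold higher in knockout mice (adjusted p = 1.89e-12). Cd244a, a SLAM receptor of NK cells, lay at least 35.1-fold higher (adjusted p = 4.48e-09), Slamf9 rose by 3.95 ± 0.40 (adjusted p = 1.98e-06) and Cd48, the ligand of CD244, by 1.88 ± 0.36 (adjusted p = 0.00101), with the lowest value of the knockout mice in mouse 4 for each of the 3.

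In the stretch of chromosome 1 from 170000000 to 180000000 of mm8, 31 of 102 tested genes rose (30.4%), 14 fell (13.7%) and the median was 0.12, against 11.3% and 8.38% of the 17419 genes with a position. Unlike the windows around the deleted genes, this stretch was not planned. It holds the genes named above as differing, so its share is not an independent result. The pentraxin gene Apcs lies there too (1.79 ± 0.38, adjusted p = 0.0023), as does the pericyte gene Rgs5. Within 10 Mb of Nr1h3 on chromosome 2, 4 of 132 genes rose and 7 fell (3.03% and 5.3%), so that this window held fewer calls than the background. Lrp4, a Wnt co-receptor gene in it, rose by 0.93 ± 0.18 (adjusted p = 0.00128, and 0.45 with adjusted p = 0.49 when its probes were averaged), and Spi1, the macrophage factor PU.1, was above background in 3 of 5 knockout and in no wild-type mouse (a difference of 0.15 with dim values at the floor, and 0.00 with the offset of 50, where it was not called). Within 10 Mb of Nr1h2 on chromosome 7, 14 of 189 genes rose (7.41%), 39 fell (20.6%) and the median was -0.17. There Klk1, a kallikrein protease gene, fell (-2.47 ± 0.42, or -1.90 with dim values at the floor, above background in 3 of 5 knockout mice, adjusted p = 0.00038), 4 of 11 tested kallikrein genes fell and none rose, and the protease gene Napsa rose by 2.39 ± 0.31 (adjusted p = 2.52e-05). Other genes described here lie in these windows too: Nr1i3, Fcgr4 and Fcer1g in the stretch of chromosome 1, Dbp and E2f8 near Nr1h2, and Cry2 near Nr1h3. The stretch of chromosome 1 holds neither deleted gene. Strain alleles and loss of the receptors cannot be told apart in the 3 windows.

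Some stromal genes rose. Of 28 tested stellate cell and myofibroblast markers 12 rose and none fell (median 0.69). The summed level of the 29 on the array was 44.2 to 53.9 in wild-type and 61.0 to 110 in knockout mice. Acta2, the actin of activated stellate cells, was at 1.62 to 2.34 in wild-type and at 1.83 to 2.88 in knockout mice (0.30 ± 0.20, adjusted p = 0.316). Rgs5, a pericyte gene, rose by 2.10 ± 0.29 (adjusted p = 5.28e-05). Postn, a matricellular protein gene, rose by 1.67 ± 0.29 (adjusted p = 0.0005, and 0.42 with adjusted p = 0.378 when its probes were averaged).

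Of 40 collagen and matrix genes 9 rose and 2 fell (median 0.51), and 4 rose without knockout mouse 1. Col1a1, the main fibrillar collagen, was at -1.70 to -1.18 in wild-type and at 1.12, -1.77, -0.69, -1.61 and 0.28 in knockout mice (0.93 ± 0.47, adjusted p = 0.178), with knockout mice 1, 3 and 5 above the wild-type mice and mice 2 and 4 within or below their range. Lum, a proteoglycan gene, rose by 0.83 ± 0.26 (adjusted p = 0.033), a call lost without any 1 of 6 mice, all except wild-type and knockout mice 3 and 4 (adjusted p = 0.0584 to 0.0916). Of 23 metalloproteinase and inhibitor genes 1 rose and 1 fell, below the background shares, and of 28 endothelial markers 2 rose (median 0.34).

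Of 24 cholangiocyte and progenitor markers 6 rose and none fell (median 0.74), and 3 rose without knockout mouse 1. The fetal gene Afp was at -1.55 to -0.54 in wild-type and at 0.05, 0.09, 1.04, -0.1 and 0.68 in knockout mice (1.41 ± 0.27, adjusted p = 0.00118), and Cd24a rose by 1.48 ± 0.24 (adjusted p = 0.000239). Dlk1, another fetal liver gene, rose by 3.50 ± 0.63 (2.20 with dim values at the floor, above background in 1 of 5 wild-type mice, adjusted p = 0.000634). Sox4 rose by 0.83 ± 0.28 (above background in 3 of 5 wild-type mice, adjusted p = 0.0452), a call lost without wild-type mouse 1, 2 or 3 or knockout mouse 1 or 2 (adjusted p = 0.0631 to 0.128). Of 22 annexin and S100 genes 12 rose and none fell (median 0.65, and 7 rose without wild-type mouse 3), among them Anxa13 (3.24 ± 0.27, adjusted p = 1.79e-07) and S100a4 (2.62 ± 0.47, adjusted p = 0.000576). The part of a change in cell composition in these lists was not tested, and the pan-macrophage, B cell and stellate sums above reached higher in knockout than in wild-type mice.

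Chaperones of the endoplasmic reticulum fell while amino acid stress genes rose. The unfolded protein response raises chaperone genes through the ER stress element when misfolded protein accumulates, and the integrated stress response raises amino acid synthesis genes through ATF4. Of 24 unfolded protein response and chaperone genes 10 fell and none rose (41.7%, median -0.53). The list also holds Coq8a, a coenzyme Q kinase gene with no known place in that response, which is among the 10 (-1.15 ± 0.20, adjusted p = 0.0004).

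Derl3, which moves misfolded proteins out for degradation, was at 1.04, 0.54, 2.17, 0.82 and 0.69 in wild-type and at -2.46, -1.6, -1.55, -0.06 and -1.04 in knockout mice (-2.39 ± 0.40, adjusted p = 0.000317). Every knockout mouse was below every wild-type mouse, and knockout mouse 4 was the nearest. The protein disulfide isomerase gene Pdia6 (-0.79 ± 0.17, adjusted p = 0.00257, 4 wild-type values) and the calcium-binding chaperone gene Calr (-0.71 ± 0.19, adjusted p = 0.0117) fell without overlap. Sdf2l1 was at 3.41 to 4.24 in wild-type and at 1.31, 1.58, 2.18, 3.93 and 2.8 in knockout mice (-1.40 ± 0.40, adjusted p = 0.0177), with mouse 4 among the wild-type values, and its call was lost without knockout mouse 1 or 2 (adjusted p = 0.0513 to 0.0598).

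Hyou1 fell (-1.05 ± 0.32, adjusted p = 0.0312, 4 values in each group), a call lost without wild-type mouse 1, 2 or 5 or knockout mouse 1 or 2 (adjusted p = 0.0538 to 0.101). Hsp90b1 fell (-0.54 ± 0.18, adjusted p = 0.0374), a call lost without any 1 of 7 mice, all except wild-type mouse 2 and knockout mice 3 and 4 (adjusted p = 0.0569 to 0.115). Hspa5 (BiP), the central chaperone, was at 6.66 to 7.82 in wild-type and at 5.89 to 7.73 in knockout mice (-0.51 ± 0.29, adjusted p = 0.249, 4 knockout values) and passed without knockout mouse 4 (-0.79, adjusted p = 0.0458). Knockout mouse 4 was the highest knockout mouse for Derl3, Sdf2l1, Hsp90b1, Calr, Pdia6 and Hspa5, and it was also apart from knockout mice 1 to 3 in the clock genes.

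The ER stress element, CCAAT and CCACG with 9 bases between them, is rare: on either strand it was present in the 250 bases before the start of 35 of 27025 genes (0.13%), and of 9 of the 21 listed genes with a RefSeq promoter (42.9%). Among genes lower in knockout liver it was present in 7 of 1009 (0.694%) and among genes higher in 0 of 1308, against 0.175% of the genes tested. The element is in capitals in the promoters of Derl3, Hsp90b1 (2 copies) and Hspa5 (GRCm38.p6), which are shown because the 3 genes share it while Hspa5 was not called. Sdf2l1, which fell, held 0 copies in this window. The LXR element, AGGTCA repeated after 4 bases, was found in 4 of 27025 genes and in none of the 11457 tested genes with a promoter of this length. Only these exact letters were searched, and as no tested gene held them the search cannot tell called from other genes.

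Derl3 (chr10:75893148-75893397, plus strand): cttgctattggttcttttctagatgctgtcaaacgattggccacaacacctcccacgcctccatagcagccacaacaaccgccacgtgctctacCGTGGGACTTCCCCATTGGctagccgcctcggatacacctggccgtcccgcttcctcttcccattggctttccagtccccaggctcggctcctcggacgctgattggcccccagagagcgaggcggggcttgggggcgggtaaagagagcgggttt

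Hsp90b1 (chr10:86705445-86705694, minus strand): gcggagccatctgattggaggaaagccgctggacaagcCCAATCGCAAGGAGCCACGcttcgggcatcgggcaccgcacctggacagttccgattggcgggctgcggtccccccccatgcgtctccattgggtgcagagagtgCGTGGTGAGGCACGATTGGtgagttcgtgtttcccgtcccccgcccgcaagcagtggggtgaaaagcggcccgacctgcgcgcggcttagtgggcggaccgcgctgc

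Hspa5 (chr2:34771840-34772089, plus strand): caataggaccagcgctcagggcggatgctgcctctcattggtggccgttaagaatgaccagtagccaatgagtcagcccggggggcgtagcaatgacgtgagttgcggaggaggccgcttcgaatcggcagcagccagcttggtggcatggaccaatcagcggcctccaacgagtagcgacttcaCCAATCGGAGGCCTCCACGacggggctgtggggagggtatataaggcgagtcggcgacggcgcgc

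Of 17 integrated stress response genes 7 rose and 1 fell (median 0.54, and 4 rose without wild-type mouse 4). Asns, asparagine synthetase, was at 3.32, 3.26, 3.34, 4.34 and 2.59 in wild-type and at 5.70, 4.85, 5.75, 5.41 and 5.96 in knockout mice (2.16 ± 0.37, adjusted p = 0.000434), without overlap. The stress-induced gene Nupr1 rose by 1.92 ± 0.31 (adjusted p = 0.000204) and Atf3 by 1.91 ± 0.47 (adjusted p = 0.00733). The serine synthesis genes Phgdh (1.30 ± 0.41, adjusted p = 0.0321) and Psat1 (1.60 ± 0.46, above background in 2 of 5 wild-type mice, adjusted p = 0.0194) rose. The call of Phgdh was lost without any 1 of 7 mice, all except wild-type mouse 2 and knockout mice 2 and 4 (adjusted p = 0.0512 to 0.085), and that of Psat1 without wild-type mouse 4 or 5 or knockout mouse 1 (adjusted p = 0.0513 to 0.0568). Chac1, which breaks down glutathione, fell (-1.53 ± 0.49, adjusted p = 0.0332), a call lost without any 1 of 6 mice, all except wild-type mouse 1 and knockout mice 2, 3 and 4 (adjusted p = 0.0515 to 0.106). Of 22 cytosolic heat shock genes 1 fell (median -0.44), and of 25 immediate early genes 8 rose and 1 fell (median 0.49).

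Glycolysis and gluconeogenesis genes moved in both directions. Of 41 tested, 9 rose and 8 fell (median -0.14, and 2 fell without wild-type mouse 4). Some genes that rose encode enzymes used mainly outside hepatocytes. Hk2 rose from -3.79 to -2.71 in wild-type mice to -0.01, -0.92, -0.99, -2.02 and -0.96 in knockout mice (2.15 ± 0.35, adjusted p = 0.000261), Hk1 by 1.28 ± 0.20 (adjusted p = 0.000193, and 0.48 with adjusted p = 0.0548 when its probes were averaged) and Pfkp by 1.05 ± 0.24 (adjusted p = 0.00472). Pkm, the pyruvate kinase of most tissues other than liver, rose by 1.31 ± 0.27 (adjusted p = 0.00206). Hk3, a hexokinase of leukocytes, rose by 1.03 ± 0.33 (adjusted p = 0.0358), a call lost without wild-type mouse 1 or 4 or knockout mouse 1, 3 or 5 (adjusted p = 0.0537 to 0.113).

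Some genes that fell encode enzymes of hepatocytes, and the calls of both named here rest on few mice. Pklr, the liver pyruvate kinase, was at 0.17, 0.62, 1.68, 1.78 and 1.77 in wild-type and at 0.09 to 0.24 in knockout mice (-1.03 ± 0.29, adjusted p = 0.018), so that wild-type mouse 1 lay within the narrow knockout range, and the call was lost without wild-type mouse 3, 4 or 5 (adjusted p = 0.0508 to 0.0534). G6pc, the glucose-6-phosphatase of liver, fell (-0.99 ± 0.32, adjusted p = 0.0352), a call lost without any 1 of 7 mice, all except wild-type mouse 3 and knockout mice 2 and 4 (adjusted p = 0.0529 to 0.102). The sums of pan-macrophage, lymphocyte and stellate markers given above reached higher in knockout than in wild-type mice, the Kupffer sum reached lower, and their part in these values was not tested.

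Several large families had shares of calls near or below those of all genes. Of 41 oxidative phosphorylation genes 3 fell and none rose (7.32%), of 39 ribosomal protein genes 2 fell (5.13%), of 51 amino acid catabolism and urea cycle genes 6 rose and 4 fell, of 47 complement and coagulation genes 3 rose and 2 fell, and of 28 acute phase genes 2 rose and 2 fell. Lysosomal genes had larger shares, 7 of 36 higher and 4 lower (19.4% and 11.1%, median -0.03). Among 26 amino acid transporters 5 rose, and Slc3a1, the cystine transporter subunit, fell from 3.05 to 4.22 in wild-type to 1.52 to 2.69 in knockout mice (-1.61 ± 0.25, adjusted p = 0.000151). Of 27 metal-handling genes 2 were called higher and 3 lower. The manganese exporter gene Slc30a10 was at 1.70 to 2.29 in wild-type and at -0.78, -0.25, -0.24, 2.01 and 0.82 in knockout mice (-1.71 ± 0.35, adjusted p = 0.00207), with knockout mouse 4 again at the wild-type level.

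Some genes outside these pathways differed strongly. Dct, dopachrome tautomerase of the melanin pathway, was at 2.81, 3.42, 2.99, 4.52 and 3.17 in wild-type and below background in every knockout mouse, at least 348-fold lower (adjusted p = 1.09e-12). The other 5 pigment cell genes tested included 1 that rose, and none of them fell. Tmc5, a transmembrane channel-like gene, was at 1.42 to 2.12 in wild-type and at -4.22 to -3.02 in knockout mice (-5.54 ± 0.25, adjusted p = 2.55e-11), and Sugct, a mitochondrial glutarate transferase gene, at 2.76 to 3.72 and at -2.24 to -1.58 (-5.04 ± 0.27, adjusted p = 6.08e-10). For both, all 5 knockout mice were more than 4 log2 units below all wild-type mice.

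The endocytic receptor gene Lrp2 (-3.53 ± 0.40, adjusted p = 6.07e-06) and the peptidase gene Mme (-3.61 ± 0.22, above background in 3 of 5 knockout mice, adjusted p = 2.66e-09) fell, and the transcription factor gene Prdm16, above background in no knockout mouse, was at least 5.02-fold lower (adjusted p = 1.07e-06). In the other direction, Rrp7a, a ribosomal RNA processing gene, was at -2.66 to -2.0 in wild-type and at 1.31 to 1.73 in knockout mice (3.90 ± 0.12, adjusted p = 3.01e-13), and Tinag, a basement membrane antigen gene, lay at least 17-fold higher (adjusted p = 2.44e-06). Of the calls, 1662 higher and 1367 lower genes were in none of the lists, which had 1307 tested members.

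The genotype difference on Western diet came from other mice. Of the 1984 genes higher on chow 1537 (77.5%) were also higher there and 76 (3.83%) were lower, and of the 1468 lower on chow 1150 (78.3%) were also lower and 48 (3.27%) were higher, where 25% and 32.7% of all genes were called higher and lower (57.7% in all). A test of the difference between the genotype differences called 1252 of the 3452 genes, and 4839 of all 17536 genes tested (27.6%). The 3452 genes were chosen by their chow difference, which enters this test, so that any excess over all genes is partly built in. Cyp3a11 and Cyp3a44 rose on chow but fell on Western diet (-0.71 and -1.09, with Cyp3a11 saturated in 5 and Cyp3a44 in 2 of 5 wild-type mice), Fabp5 fell on chow but rose on Western diet (2.29), and Nlrp12, Dct and Ifi202b went the same way on both diets (-3.06, -8.25 and 8.65 on Western diet). Mitosis genes were higher on both diets (28 of 37 on chow and 26 on Western diet), and cholesterol synthesis genes, 11 of 25 higher on chow, were lower on Western diet (19 of 25).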

How the data were processed

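Total liver RNA of 20 mice was labelled with Cy3 and hybridised to 1-colour Agilent arrays of the whole mouse genome, with probe positions on mm8. The intensity of each spot was deposited as scanner output of Agilent Feature Extraction 9.5.3.1, per the file headers, and the submitters' processing notes name Feature Extraction 9.5 and limma. The series matrix that the authors deposited holds log2 values whose normalization and probe choice are not given in the sources used here.

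From the intensity, log2 of the processed signal minus the log2 75th percentile of the array was computed without control spots and outlier spots (105 to 254 per normal-diet array). The probe with the highest mean signal stood for a gene, and a gene was kept if at least 4 of the 5 arrays in any of the 4 groups showed it well above background (17548). Of 41174 probes, 23483 were named by accession, 6678 by symbol, 2887 by synonym and 8126 as in the file, and 27 genes had called probes in opposite directions. All 4 groups were fitted together with limma 3.58.1 (R 4.3.3) with Benjamini-Hochberg adjustment, and 5 arrays per group limit the precision. The p values measure the spread between mice. On simulated data with 17004 genes, 14.9%, 71.6% and 92.4% of genes changed by 0.5, 1 and 2 log2 units were called, and 5 of 16804 unchanged genes. Only 67, 67 and 66 genes were changed there, and each gene had the same normal spread in all groups. In the real data 19.7% of genes were called, and spreads could differ, as for Arntl (SD 0.59 in wild-type and 2.30 in knockout mice). The simulated rates may therefore not hold for this comparison.

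The genes described and the gene lists were chosen with earlier results of these data known. Named genes are list members and genes with large differences, most of them called. Replicate numbers do not pair the mice: deviations of same-numbered mice correlated at -0.38 to -0.00. Alternatives covered scaling, background, filter, probe choice, slide and replicate blocks, array weights, the series matrix and leaving out each mouse. Python 3.11.15 drew the figures. Some genes are not reported here.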

Additional observations from a re-analysis of the deposited data

Results flagged for a closer look

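In 24 of the 276 groups of 5 mice tested, 1 mouse lay apart from the other mice of its group, in 22 genes. The number in brackets is the gap to the nearest mouse divided by the range of the group, for which 0.71 is the critical ratio, and chance alone gives such a ratio in about 1 in 20 groups. Knockout mouse 4 was the low mouse for Wee1 (0.77), Itgax (0.84), Fcgr4 (0.77), Cd300e (0.78), Sirpb1a (0.72), Pycard (0.81), Cd244a (0.73), Napsa (0.79) and Cd48 (0.71). Most of these genes belong to macrophages, monocytes and lymphocytes, and this mouse was also apart from knockout mice 1 to 3 in the clock genes.

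Wild-type mouse 2 was the high mouse for Cd5l (0.82), Clec4f (0.87), Slc11a1 (0.91) and Adgre1 (0.84), which are macrophage genes, and it was the low mouse for Lrp2 (0.77). Knockout mouse 2 was the low mouse for Clec4f (0.77) and Folr2 (0.77). Wild-type mouse 4 was the low mouse for Srd5a2 (0.78) and Pycard (0.95). Wild-type mouse 1 was low for Usp2 (0.74) and high for Irf1 (0.81), and wild-type mouse 5 was low for Cyp17a1 (0.76). Knockout mouse 5 was high for Per2 (0.76) and Apcs (0.88), and knockout mouse 1 for Sox4 (0.74).

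For 59 of the 152 named genes the genotype difference itself differed between the diets, by the limma contrast of the Western-diet difference minus the normal-diet difference with an adjusted p under 0.05. The number in brackets is that value on the log2 scale. Among all 17536 genes tested 27.6% passed this test, and many named genes were picked for their chow difference, which enters it. The Western-diet groups were other mice. In 8 of the 59 genes (Abcd2, Eda2r, Gpnmb, Fabp5, Gzma, Ifi202b, Dct and Tinag) at least 1 of the 4 groups was below background in every mouse, and Selenbp2 and Cyp3a11 were saturated in all 5 wild-type mice of at least 1 diet and Cyp3a44 in some mice, so that their values are not exact. Sex-biased and steroid genes were mostly more negative on Western diet, with Hsd3b5 (-6.95), Hsd3b4 (-4.90), Srd5a1 (-2.43), C9 (-1.96), Hsd3b3 (-1.70), Hsd3b6 (-1.55), Selenbp2 (-1.31), Cyp3a44 (-2.99) and Slco1a4 (-1.33), and Abcd2 was more positive (2.42). Growth hormone axis genes were more negative, with Lifr (-1.45), Ghr (-1.40) and Igf1 (-0.88). So were the xenobiotic genes Gsta2 (-2.73) and Cyp3a11 (-2.32). Retinoid genes differed in both directions, with Cyp26a1 (-2.98), Bco2 (-1.67) and Dhrs9 (2.34). In the clock and cell cycle lists the values were negative for Usp2 (-2.22), E2f8 (-3.58) and Eda2r (-2.84).

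Macrophage genes differed in both directions. The difference was more positive on Western diet for Gpnmb (7.82), Fabp5 (5.65), Itgax (3.27), Ms4a7 (2.52) and Slc11a1 (1.27), and more negative for the monocyte genes Cd300e (-4.96) and Fcgr4 (-2.34) and the Kupffer cell genes Clec4f (-4.22) and Cd5l (-1.95). Other immune genes with a difference were Gzma (-3.45), Cd79b (-1.83), Igtp (-2.10), Ccl24 (2.48), Nlrp12 (4.56) and Ifi202b (1.87). Stromal, progenitor and S100 genes were mostly more positive, with Col1a1 (4.43), S100a4 (3.26), Cd24a (2.34), Lum (2.23), Sox4 (1.82) and Postn (1.65), and Dlk1 was more negative (-2.59).

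Stress and glucose genes with more positive values were Atf3 (2.61), Phgdh (2.33), Hk3 (2.25), Pkm (2.21), Pfkp (1.78), Nupr1 (1.43) and Hk1 (1.01). More negative values were found for Coq8a (-1.95), Slc30a10 (-1.87) and G6pc (-1.86). Among the genes outside these pathways the values were Tmc5 (3.51), Mme (1.78), Dct (1.66), Napsa (1.55), Sugct (-1.56) and Tinag (-2.39).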

How the results depend on the processing

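The count of genes higher in knockout liver was 1984, of genes lower 1468, and of called genes differing between diets 1252. With the normexp background these were 308, 188 and 130; its fitted background mean ran from -471.0 to -4.64 intensity units over the arrays. An offset of 50 after background subtraction, an alternative chosen after seeing the data, gave 1139 higher and 1134 lower, so that 50.1% of calls were higher against 57.5%, and the filter on all 10 arrays gave 49.2%. Median scaling gave 918 lower and 621 differing, and array weights 2493 lower and 2157 differing. Leaving out 1 mouse gave 1553 to 2194 higher, 964 to 1928 lower and 961 to 1364 differing, and the 964 came without knockout mouse 1. The cause of these shifts was not tested. A replicate block gave 1952 higher and 1477 lower, with 1260 differing, and a slide block 1922 and 1645. Numbers do not pair the mice, and same-slide pairs of mice correlated at 0.06 to 0.52. The median difference was -0.19 with no filter and -0.00 with normexp. Fitted on only the 10 normal-diet arrays, 1823 genes were called higher and 1169 lower, and 79.1% of the calls were kept. In that fit the calls of Arntl, Clock, Nfil3, Stat5b, Sult1e1, Cdkn1a, Cd74 and Pycard were lost (adjusted p = 0.053 to 0.134). Those of Il1b, Irf1, Sox4, Sdf2l1, Hyou1, Hsp90b1, Chac1 and Hk3 were lost too (adjusted p = 0.0573 to 0.115).

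Within single slides some named differences turned: Arntl (0.21), Clock (0.15), Stat5b (0.06), Il1b (-1.03) and G6pc (0.12) on slide 4, Cdkn1a (-0.38), Chac1 (0.55), Pklr (0.02) and Irf1 (-0.38) on slide 2, and Sult1e1 (-0.83) and Sox4 (-0.07) on slide 6. Of all 3452 calls 64.7% were kept without each mouse in turn, 34.8% under every alternative except normexp and 12.8% under every alternative, against 81.7%, 67.6% and 43% of the 142 named calls, so the named genes overstate the firmness of the rest. Signal near background limits the dim genes: of the mitosis genes 28 were called, 14 with the offset of 50 and 2 with normexp.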
